A study of Mus musculus with 8 samples.

Results

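Gas5 and 6 small nucleolar RNA host genes, Snhg1, Snhg3, Snhg5, Snhg6, Snhg8 and Snhg12, were followed in mouse collecting duct cells exposed to added NaCl. The genes were taken by symbol from the gene table, and all 7 of the 7 symbols sought were present among its 15288 genes. The cells were IMCD, a line from the inner medullary collecting duct of the mouse kidney, the segment that meets the saltiest fluid of the body. Total RNA was sequenced from 4 control libraries, kept for 12 h in DMEM without serum, and from 4 NaCl libraries, kept for the same 12 h in the same medium with NaCl added, which the labels give as 100 mmol with no volume. Both groups had been grown in medium with serum before that step, so the withdrawal of serum is common to them. The labels do not say that the libraries came from separate cultures, so the p-values measure the spread between these libraries, which may be technical. In bulk RNA, fewer cells that transcribe a gene and less of its RNA per cell cannot be told apart.

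Small nucleolar RNAs guide the chemical modification and processing of ribosomal RNA, and in mammals most of them are cut from the introns of longer host transcripts. In a noncoding host the introns carry the useful product, while the spliced exons form an RNA without a long conserved reading frame. Many of these spliced RNAs are read by ribosomes and destroyed by nonsense-mediated decay, so their level depends on translation as well as on transcription. Several hosts begin with a 5' terminal oligopyrimidine (TOP) tract, a run of pyrimidines that starts with C and that they share with the ribosomal protein genes. The Gas5 name stands for growth arrest-specific, after the accumulation of its spliced RNA in cells that stop growing, and one stretch of that RNA is known to bind the glucocorticoid receptor.

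In the GENCODE M21 annotation of GRCm38 the 7 genes hold 27 separate snoRNA loci, all of them in introns of the transcript drawn for each gene. Gas5 (ENSMUSG00000053332, chr1:161034422-161038539, plus strand) has 12 exons in that transcript and 9 snoRNA loci, among them Snord47, Snord78 and Snord80, and 1 that the annotation types as a snoRNA under the microRNA name Mir5117. Snhg1 (ENSMUSG00000108414, chr19:8723475-8726443, plus strand) has 10 exons and 8 snoRNA loci, among them Snord22. Snhg12 (ENSMUSG00000086290, chr4:132308623-132311024, plus strand) has 5 exons and 4 loci, Snora16a, Snora44, Snora61 and Snord99. The other 4 genes carry fewer. Snhg3 (ENSMUSG00000085241, chr4:132348014-132353686, minus strand) holds Snora73a and Snora73b. Snhg5 (ENSMUSG00000097195, chr9:88521050-88522929, minus strand) holds Snord50a and Snord50b. Snhg6 (ENSMUSG00000098234, chr1:9941959-9944118, minus strand) holds Snord87, and Snhg8 (ENSMUSG00000104960, chr3:123507552-123508404, minus strand) holds Snora24. The mature snoRNAs were not analysed here.

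**Figure D1:**
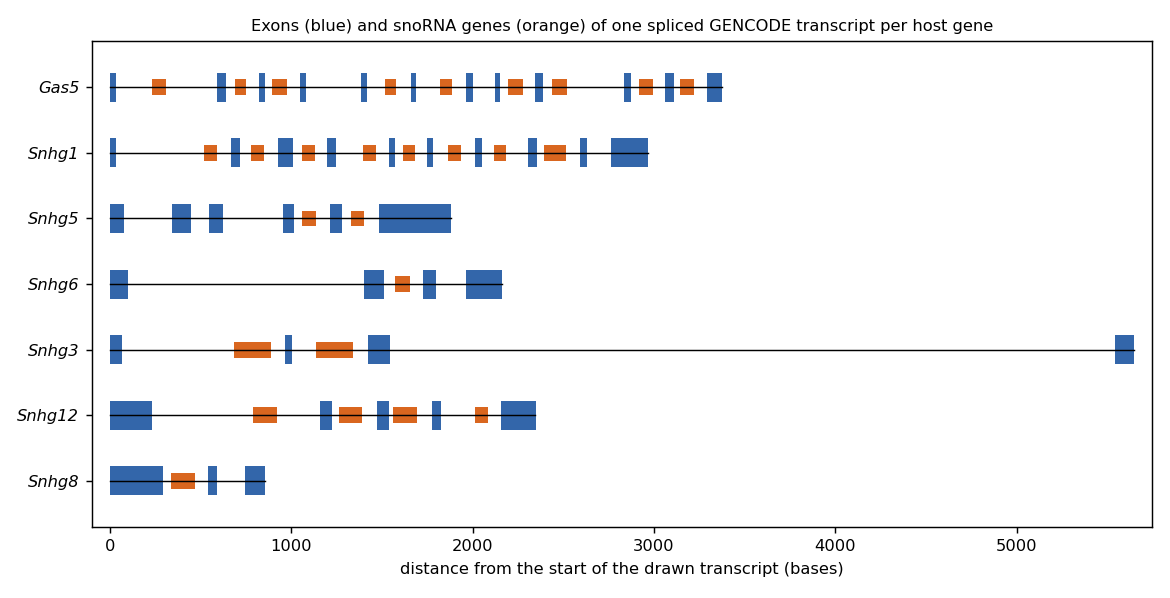
Maps of the 7 host genes to scale, with distance in bases from the start of the drawn transcript on the horizontal axis, boxes for exons and separate marks for snoRNA loci. The snoRNA marks lie between exons in every gene, and Gas5 and Snhg1 carry the most, 9 and 8.

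The sequences around the start sites are shown because the selection of the genes rests on a promoter class shared with ribosomal protein genes. Each runs from 80 bases before to 40 bases after the RefSeq start on GRCm38.p6, 5′ to 3′ along the gene's own strand, and 6 of the 7 hosts matched an entry, all but Snhg6. Capitals mark a TOP tract, written here as C followed by at least 4 pyrimidines and starting within 5 bases of the start on the gene's own strand, a TATA element (TATAA or TATAT starting 45 to 15 bases before the start on the gene's own strand, overlapping matches joined), or the cAMP response element TGACGTCA, which reads the same on both strands.
Gas5 (chr1:161035086-161035205, plus strand): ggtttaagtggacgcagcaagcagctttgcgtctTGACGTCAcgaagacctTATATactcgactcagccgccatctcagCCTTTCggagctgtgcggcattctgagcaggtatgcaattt
Snhg1 (chr19:8723407-8723526, plus strand): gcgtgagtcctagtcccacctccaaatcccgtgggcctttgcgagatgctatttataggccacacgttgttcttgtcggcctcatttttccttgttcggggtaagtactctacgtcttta
Snhg3 (chr4:132353647-132353766, minus strand): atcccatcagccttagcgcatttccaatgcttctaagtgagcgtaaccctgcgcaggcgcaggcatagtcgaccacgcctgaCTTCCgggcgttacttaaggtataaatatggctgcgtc
Snhg5 (chr9:88522858-88522977, minus strand): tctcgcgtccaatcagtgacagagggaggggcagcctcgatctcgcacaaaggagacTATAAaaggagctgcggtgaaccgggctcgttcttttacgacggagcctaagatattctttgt
Snhg8 (chr3:123508297-123508416, minus strand): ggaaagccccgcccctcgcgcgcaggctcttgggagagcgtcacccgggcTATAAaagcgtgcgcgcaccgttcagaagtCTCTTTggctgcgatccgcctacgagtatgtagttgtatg
Snhg12 (chr4:132308598-132308717, plus strand): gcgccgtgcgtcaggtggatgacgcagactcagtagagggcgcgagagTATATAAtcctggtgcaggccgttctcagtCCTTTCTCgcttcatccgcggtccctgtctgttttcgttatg

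A TOP tract by this definition was present in 4 of the 6 host windows, those of Gas5, Snhg3, Snhg8 and Snhg12. It was present in 28 of the 59 ribosomal protein genes that had an entry, of 80 listed (47.5% of the 59), and in 5718 of 27025 RefSeq symbols (21.2%). In these shares a gene with several windows was counted when any of them held the motif. A TATA element was present in 4 of the 6 host windows, against 6 of 59 (10.2%) and 1812 of 27025 (6.7%). The cAMP response element was sought from 250 bases before to 50 bases after the start. It was found in Gas5 among the 6 hosts, in 6 of 59 ribosomal protein genes (10.2%) and in 549 of 27025 symbols (2.03%). The motifs were chosen after the sequences had been seen, and a match is a description of letters.

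All 7 hosts had a lower mean in the NaCl libraries, and 5 of them, Gas5, Snhg1, Snhg3, Snhg5 and Snhg6, fell by the test across all genes. The falls were between 24% and 31.5% of the control level. Snhg12 and Snhg8 did not pass the test. Of all 14024 genes tested, 34.1% were called in either direction and 17.2% were called lower, so a lower call is common in this comparison, and 5 of 7 is to be read against that share. The median log2 fold change was −0.42 over the 7 hosts and 0.00 over all genes tested (edgeR quasi-likelihood test, Benjamini-Hochberg adjusted p under 0.05 over all genes).

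Gas5 was the host with the highest expression by count. Its level in CPM, the read count scaled to a common library total with a correction for library composition, was 52.3, 61.0, 55.7 and 48.1 in control libraries 1 to 4 and 39.9, 40.3, 44.2 and 40.6 in NaCl libraries 5 to 8. Every control library lay above every NaCl library. The control mean was 54.3 ± 5.43 CPM and the NaCl mean 41.3 ± 1.97 CPM (mean ± SD of 4 libraries, here and below). The log2 fold change was −0.40 (SE 0.0639, 95% interval −0.53 to −0.26, edgeR adjusted p = 1.80e-04). The raw counts behind these values ran from 1430 to 2572 per library.

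Snhg1, which carries a long run of box C/D snoRNAs, had 26.3, 28.6, 28.1 and 21.2 CPM in the control libraries and 18.6, 19.1, 18.6 and 19.2 CPM in the NaCl libraries. The NaCl libraries were tightly grouped, and control 4 was the control library nearest to them. The log2 fold change was −0.47 (SE 0.0817, 95% interval −0.64 to −0.29, edgeR adjusted p = 3.23e-04), from 26.1 ± 3.40 to 18.9 ± 0.306 CPM.

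Snhg5, the host of the Snord50 pair, had 13.0, 14.6, 12.4 and 13.8 CPM in the control libraries and 8.82, 10.4, 9.45 and 10.3 CPM in the NaCl libraries, with no overlap between the groups. The means were 13.4 ± 0.923 and 9.74 ± 0.750 CPM. Snhg5 fell by 0.46 on the log2 scale (SE 0.0856, 95% interval −0.64 to −0.28, edgeR adjusted p = 4.92e-04).

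Snhg6 and Snhg3 were measured on fewer reads. Snhg6 had 11.0, 9.79, 8.96 and 9.22 CPM in the control libraries and 6.84, 7.21, 7.73 and 7.46 CPM in the NaCl libraries. Its groups did not overlap, and Snhg6 fell by 0.42 on the log2 scale (SE 0.0957, 95% interval −0.62 to −0.21, edgeR adjusted p = 0.00279). Snhg3 had 4.74, 5.29, 6.02 and 4.78 CPM in the control libraries and 3.79, 3.90, 3.03 and 3.53 CPM in the NaCl libraries. It had the lowest count of the 7, 125 to 249 reads per library, and the lowest log2 fold change, −0.55, with the widest interval, −0.83 to −0.27 (edgeR adjusted p = 0.00408). The 95% intervals of the 5 hosts that fell overlap one another, and no order among their changes was tested.

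The exons of Snhg3 are crowded, and this limits its value. Of their 986 bases, 83.3% lie on another annotated gene, 71.5% on Gm17300 on the opposite strand and 13.7% on Rcc1 on the same strand. The strandedness of the counting is not given in the sources used here, so reads of Snhg3 and of these partners may not have been told apart. Snhg6 overlaps Mcmdc2, on the opposite strand, over 11.1% of its exon bases, and Mcmdc2 itself had 1 to 9 reads per library. The exons of Gas5, Snhg1, Snhg5, Snhg8 and Snhg12 overlap no other gene besides their own snoRNAs.

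Snhg12, from which mainly box H/ACA snoRNAs are cut, had 8.57, 9.10, 8.48 and 8.75 CPM in the control libraries and 6.92, 7.66, 7.83 and 7.31 CPM in the NaCl libraries. Its groups did not overlap, yet the log2 fold change of −0.23 (SE 0.0894, 95% interval −0.42 to −0.04) did not pass the test after adjustment (edgeR adjusted p = 0.0559). With DESeq2 the adjusted p was 0.0342, and with limma on the deposited normalized values it was 0.0453. Separation of the groups with the NaCl libraries lower was seen in 6 of the 7 hosts and in 16.9% of all genes tested.

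Snhg8, the host of Snora24, had 14.1, 16.4, 13.9 and 13.9 CPM in the control libraries and 13.4, 11.2, 13.6 and 14.6 CPM in the NaCl libraries. NaCl 8 lay above 3 of the 4 control libraries. The log2 fold change was −0.14 (95% interval −0.33 to 0.05, edgeR adjusted p = 0.258), so a fall as large as that of Gas5 lies outside its interval. The difference between Snhg8 and the other hosts was not tested.

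**Figure D2:**
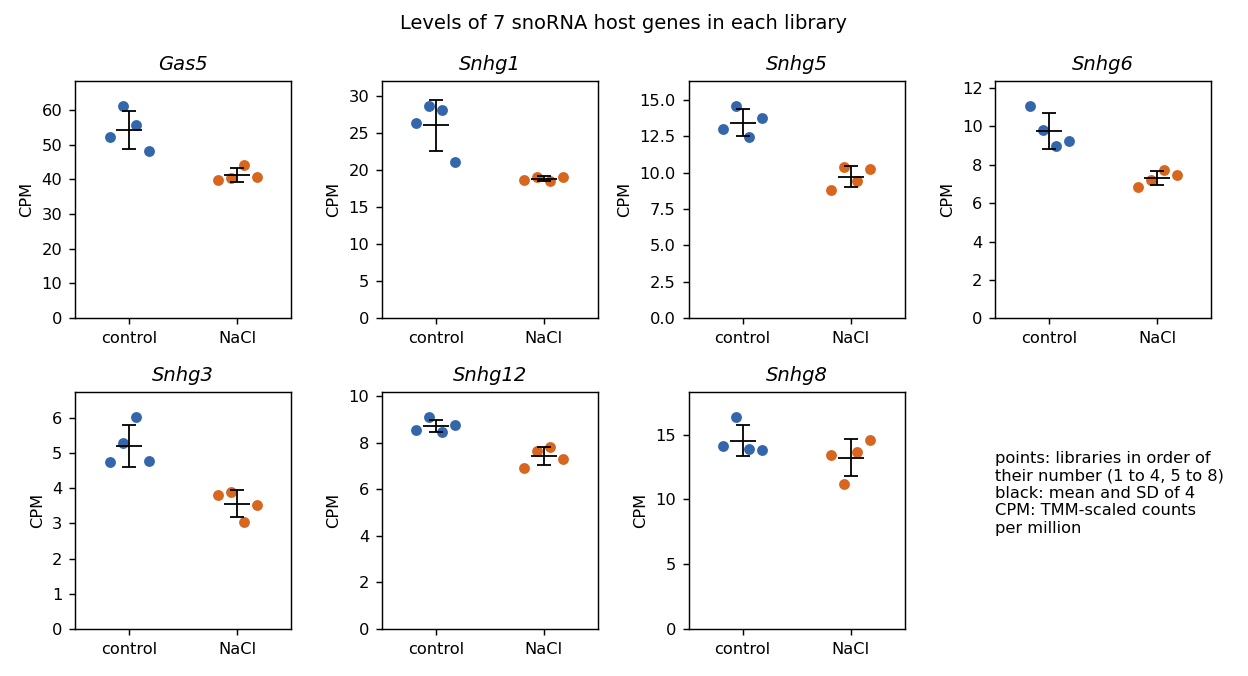
CPM of the 7 host genes in each library, 1 panel a gene with its own axis from 0, with points for libraries and bars for the mean and SD of each group (n = 4). The control points lie above all NaCl points in every panel except that of Snhg8.

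Levels between genes were compared per kilobase. Over the union of annotated exons, the control means ran from 17.1 CPM per kilobase for Snhg8 and 14.4 for Gas5 through 8.78 for Snhg1, 8.51 for Snhg6, 7.77 for Snhg5 and 5.28 for Snhg3 to 3.63 for Snhg12. The ranges over the control libraries of Snhg1, Snhg6 and Snhg5 overlapped, so these neighbours were not separated. The order depends on the length used, since 20 of the 25 annotated Gas5 transcripts and 14 of the 18 of Snhg1 retain introns. Over the spliced length of the drawn transcript, Gas5 stood first at 108 CPM per kilobase, followed by Snhg1 at 43.1, Snhg8 at 32.5, Snhg6 at 20.6, Snhg5 at 17.2, Snhg3 at 15.7 and Snhg12 at 14.4. The control ranges overlapped between Snhg1 and Snhg8, between Snhg5 and Snhg3, and between Snhg3 and Snhg12 on this length, so these neighbours were not separated. Snhg12 had the lowest mean under both lengths.

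The ribosomal protein genes gave the comparison that the shared promoter class calls for. All 80 listed cytosolic ribosomal protein genes were tested, with a median log2 fold change of −0.21, against 0.00 over all genes tested. Of the 80, 65 fell, 15 did not pass and none was called higher, beside 17.2% of all genes called lower and 16.9% higher. The summed level of the 80 genes was 46407, 49485, 48847 and 49255 CPM in the control libraries and 39982, 40630, 42412 and 43022 CPM in the NaCl libraries. The sum went from 48499 ± 1419 to 41512 ± 1439 CPM, with an exact 2-sided permutation p of 0.0286, the smallest that 4 against 4 allows. The most abundant of them, Rplp0 of the ribosomal stalk, had a log2 fold change of −0.22 (edgeR adjusted p = 1.02e-04). Rps2, a protein of the small subunit, was lowest at −0.44 (edgeR adjusted p = 3.36e-08), though 84.6% of its longest transcript has a near-identical copy elsewhere in the transcriptome, and only 14 of the 80 genes share under 10%.

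The 5 hosts that fell stood at the lower edge of the ribosomal protein range. Snhg1, Snhg3 and Snhg5 had a lower log2 fold change than each of the 80 ribosomal protein genes, and Gas5 and Snhg6 had a lower one than 79 of them, all but Rps2. Snhg12 lay within the range, with 35 ribosomal protein genes below it, and Snhg8 had 64 below it.

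**Figure D3:**
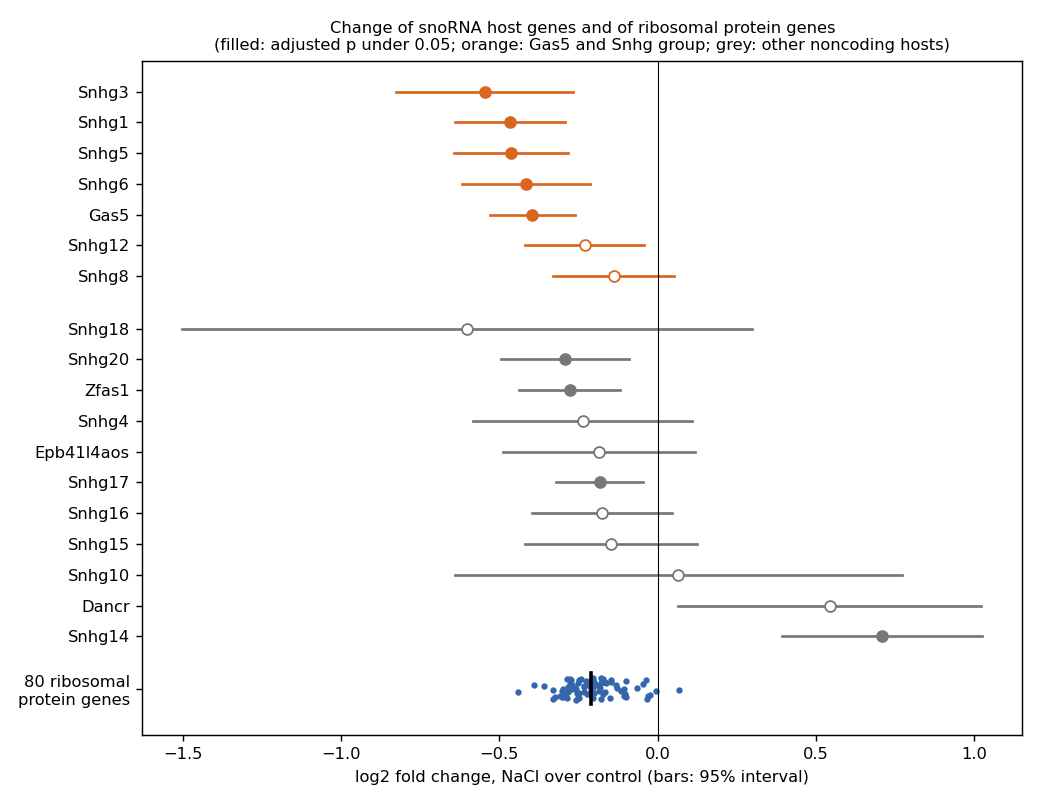
Log2 fold change of NaCl against control, with 95% intervals, on the horizontal axis for the 7 host genes (orange) and the other 11 noncoding hosts tested (grey; filled where adjusted p was under 0.05), with the 80 ribosomal protein genes as points. Snhg1, Snhg3 and Snhg5 lie to the left of the lowest ribosomal protein gene at −0.44, while Snhg8 and Snhg12 lie inside the range.

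A second fit scaled the libraries by the ribosomal protein genes, so that a gene that moved as they did comes out near 0. This scaling shifts the median of all genes to a log2 fold change of 0.21, and 51.4% of all genes were then called higher and 4.37% lower. Relative to the ribosomal protein genes, Gas5, Snhg1, Snhg3 and Snhg5 were called lower, 4 of the 7 hosts. The relative log2 fold change was −0.18 for Gas5 (95% interval −0.32 to −0.05, edgeR adjusted p = 0.022), −0.26 for Snhg1 (−0.43 to −0.08, adjusted p = 0.0158) and −0.25 for Snhg5 (−0.44 to −0.06, adjusted p = 0.024). It was −0.33 for Snhg3 (−0.62 to −0.04, edgeR adjusted p = 0.0497), at the edge of the threshold. Snhg6 had −0.21 (95% interval −0.43 to 0.01, edgeR adjusted p = 0.0974) and did not pass.

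Snhg12 had a relative value of −0.02 (95% interval −0.23 to 0.19) and Snhg8 one of 0.07 (−0.12 to 0.26). The first interval includes a relative change of the size seen for Gas5, and that of Snhg8 does not.

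Single libraries overlapped between the groups for most hosts. Expressed as the gene's log2 CPM minus the mean log2 CPM of the ribosomal protein genes in the same library, Gas5 was at −3.06, −2.96, −3.06 and −3.26 in the control libraries and at −3.27, −3.25, −3.21 and −3.34 in the NaCl libraries. Control 4 lay among the NaCl libraries on this scale. The same held for Snhg1, with −4.45 in control 4 against −4.05 to −4.04 in the other control libraries and −4.46 to −4.33 in the NaCl libraries. The groups were fully separated on this scale for Snhg3 and Snhg6 and overlapped for Gas5, Snhg1, Snhg5, Snhg8 and Snhg12. The share of all genes separated on this scale was not computed, so how common such a separation is remains unknown. Without control 2, none of the 7 hosts was called lower relative to the ribosomal protein genes, and the adjusted p was 0.113 for Gas5, 0.0719 for Snhg1, 0.0698 for Snhg5 and 0.0838 for Snhg3. Without control 3 the call remained for Snhg5 alone, and without NaCl 7 or without NaCl 8 there were 2 calls.

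**Figure D4:**
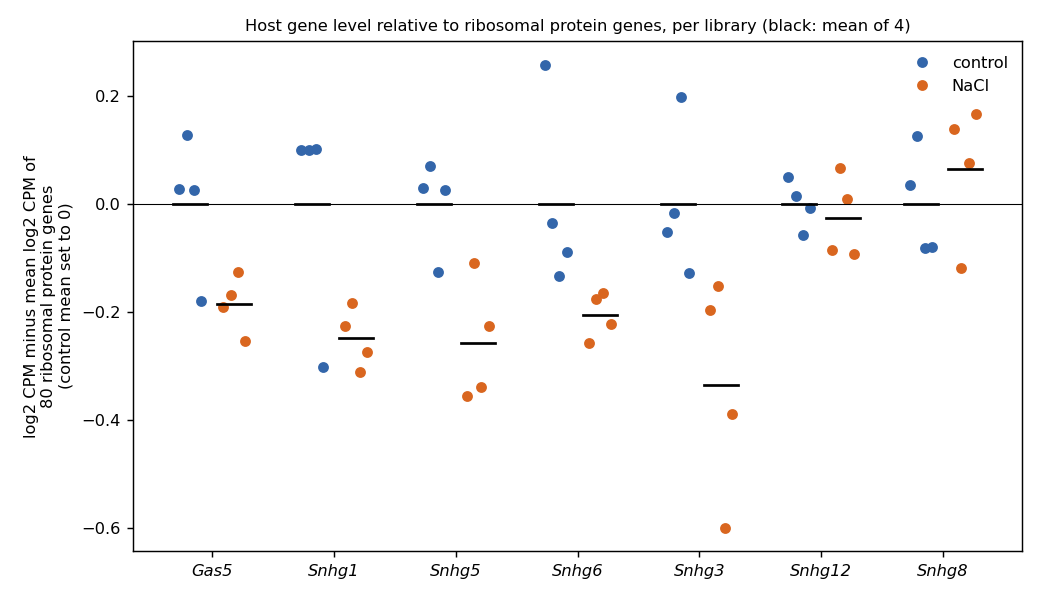
Log2 CPM of each host minus the mean log2 CPM of the 80 ribosomal protein genes in the same library, drawn with the control mean of each gene set to 0 on the vertical axis, with points for libraries and black bars for group means. Control 4, the rightmost control point, lies with the NaCl libraries for Gas5 and Snhg1, and the groups are separated for Snhg3 and Snhg6.

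Most further noncoding hosts did not pass the test. Of 16 further noncoding host genes sought, 13 were in the table and 11 were tested, of which 3 fell, 1 rose and 7 did not pass, with a median log2 fold change of −0.18. Over all genes tested 17.2% were called lower and 16.9% higher, and these counts are not far from those shares. The genes that fell were Snhg20 (−0.29, edgeR adjusted p = 0.0264), Zfas1 (−0.28, adjusted p = 0.00919) and Snhg17 (−0.18, adjusted p = 0.0396). Zfas1, antisense to the start of Znfx1, went from 25.5 ± 2.29 to 21.0 ± 1.64 CPM, with control 1 at 22.2 CPM below NaCl 7 at 23.1 CPM. The call of Snhg20 was lost without control 3 (adjusted p = 0.0757) or NaCl 5 (0.0807). That of Snhg17 was lost without any 1 of controls 2, 3 and 4 and NaCl 5, 6 and 8, with an adjusted p of up to 0.123. Relative to the ribosomal protein genes, none of the 11 was called lower by edgeR, where 4.37% of all genes tested were called lower.

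Snhg14, the long imprinted transcript that runs antisense to Ube3a and hosts large snoRNA clusters, rose. It had 2.45, 3.15, 4.11 and 3.12 CPM in the control libraries and 5.69, 4.87, 5.40 and 5.0 CPM in the NaCl libraries. Every NaCl library was above every control library, and the gene rose by 0.71 on the log2 scale (SE 0.149, 95% interval 0.39 to 1.03, edgeR adjusted p = 0.00144). It was measured on 117 to 223 reads per library. Of its exon bases, 6.91% overlap Ube3a on the opposite strand. The strandedness of the counting is not given, so reads of Snhg14 and Ube3a may not have been told apart there.

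Dancr, the host of Snora26, had 1.66, 3.18, 1.55 and 1.61 CPM in the control libraries and 3.04, 3.43, 2.50 and 2.67 CPM in the NaCl libraries. Control 2 lay among the NaCl libraries. The log2 fold change of 0.54 did not pass (edgeR adjusted p = 0.0735), and without control 2 it was 0.85 (edgeR adjusted p = 0.00348). Relative to the ribosomal protein genes, Dancr and Snhg14 were called higher, at 0.76 and 0.92. On that scale 51.4% of all genes tested were called higher, and the median of all genes was 0.21.

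The other noncoding hosts that were tested had log2 fold changes of −0.60 for Snhg18, −0.24 for Snhg4, −0.18 for Epb41l4aos, −0.17 for Snhg16, −0.15 for Snhg15 and 0.07 for Snhg10, and none passed (edgeR adjusted p from 0.217 to 0.903). Snhg18 had at most 0.686 CPM and Snhg10 at most 1.44 CPM in any library. Snhg9 and Snhg11 had at most 13 reads in a library and were not tested.

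Protein-coding genes that carry snoRNAs in their introns fell in 14 of 18 cases, against 17.2% of all genes, with none called higher and a median log2 fold change of −0.20. Ncl, which encodes the nucleolar protein nucleolin, had 1002 ± 54.7 CPM in the control and 712.9 ± 19.0 CPM in the NaCl libraries and fell by 0.49 on the log2 scale (edgeR adjusted p = 5.49e-08). Relative to the ribosomal protein genes Ncl was at −0.28 (edgeR adjusted p = 1.94e-04), the one gene of the 18 called lower there. Another 4 of the 18 were called higher on that scale, where 4.37% of all genes were called lower and 51.4% higher. Nop58, itself a core box C/D snoRNP protein, had a log2 fold change of −0.30 (edgeR adjusted p = 0.00261). The most abundant coding host, Eef2, the translocating elongation factor, was at −0.07 and did not pass (edgeR adjusted p = 0.271). Eef2 passed with library number as a covariate, at −0.07 with the number centred within its group (adjusted p = 0.0102) and at −0.33 with it as a linear drift over both groups (adjusted p = 1.15e-06).

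TOP genes outside the ribosome fell in 13 of 18 cases, against the same 17.2%, with none called higher and a median of −0.17. Pabpc1, the cytoplasmic poly(A)-binding protein, was at −0.39 (edgeR adjusted p = 6.12e-08) and Npm1, a nucleolar chaperone, at −0.37 (adjusted p = 3.11e-07). Eef1a1, which delivers aminoacyl-tRNA to the ribosome and had the most reads of the list, was at 0.08 and did not pass (edgeR adjusted p = 0.0772). It passed without control 4 (0.10, adjusted p = 0.0413), with library totals alone as scaling (0.0228) and with library number centred within its group as a covariate (0.00185). This list and the coding hosts share members such as Eef2 and Rack1.

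Of 19 genes tested for the proteins that assemble on snoRNAs, 12 fell and 2 rose, with a median log2 fold change of −0.22, beside 17.2% of all genes called lower and 16.9% higher. Nop58 and Gar1, core proteins of the box C/D and box H/ACA particles, were both at −0.30 (edgeR adjusted p = 0.00261 and 0.00216). Fbl, the methyltransferase of the box C/D particle, was at −0.28 (edgeR adjusted p = 7.46e-05). Fbl was named after its values were seen. The genes that rose were Pih1d1, part of the R2TP assembly chaperone, at 0.24 (edgeR adjusted p = 7.40e-04) and Tgs1, which adds the trimethyl cap to small nuclear and nucleolar RNAs, at 0.15 (adjusted p = 0.0212). The call of Tgs1 was lost without control 3 (adjusted p = 0.0675) or NaCl 8 (0.0784).

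Most genes of nonsense-mediated decay and the exon junction complex did not pass the test. Of 14 tested, 3 rose, 1 fell and 10 did not pass, with a median log2 fold change of 0.01, against 16.9% of all genes called higher. Smg5 rose by 0.17 (edgeR adjusted p = 0.00365), Smg9 by 0.16 (adjusted p = 0.040) and Upf1, the helicase at the core of the pathway, by 0.15 (adjusted p = 0.00464). Upf1 had 147, 136, 144 and 141 CPM in the control libraries and 160, 165, 150.0 and 158 CPM in the NaCl libraries, so its groups did not overlap. The call of Smg9 was lost without any 1 library other than NaCl 5, with an adjusted p of up to 0.122. Rbm8a, which encodes the Y14 subunit of the exon junction complex, fell by 0.21 on the log2 scale (edgeR adjusted p = 0.00405).

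Among 13 regulators of TOP translation and growth, 5 fell and 1 rose, with a median of −0.06, where 34.1% of all genes were called in either direction. Eif4ebp1, the translation repressor controlled by mTOR, was at −0.29 (edgeR adjusted p = 0.00327), Myc at −0.16 (adjusted p = 0.022) and Larp1, which binds TOP mRNAs, at −0.14 (adjusted p = 0.00272). Mxd4, a partner of Max that opposes Myc, rose by 0.28 (edgeR adjusted p = 3.05e-05). The call of Myc was lost without control 4, NaCl 5, NaCl 6 or NaCl 7, with an adjusted p of up to 0.0711.

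The glucocorticoid receptor gene Nr3c1 had 97.6 ± 2.67 CPM in the control and 96.8 ± 1.88 CPM in the NaCl libraries, and its log2 fold change of −0.01 (95% interval −0.09 to 0.06) did not pass. Of the 5 genes tested in the receptor and target list, Klf9 and Fkbp5 fell, at −0.43 (edgeR adjusted p = 5.35e-04) and −0.37 (adjusted p = 0.0395), and none rose, beside 17.2% of all genes called lower. Fkbp5 had 52.3, 45.5, 35.4 and 38.9 CPM in the control libraries and 35.7, 33.2, 35.3 and 29.0 CPM in the NaCl libraries, and its groups overlapped. Its call was lost without control 2 or any 1 of the 4 NaCl libraries, with an adjusted p of up to 0.0957.

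**Figure D5:**
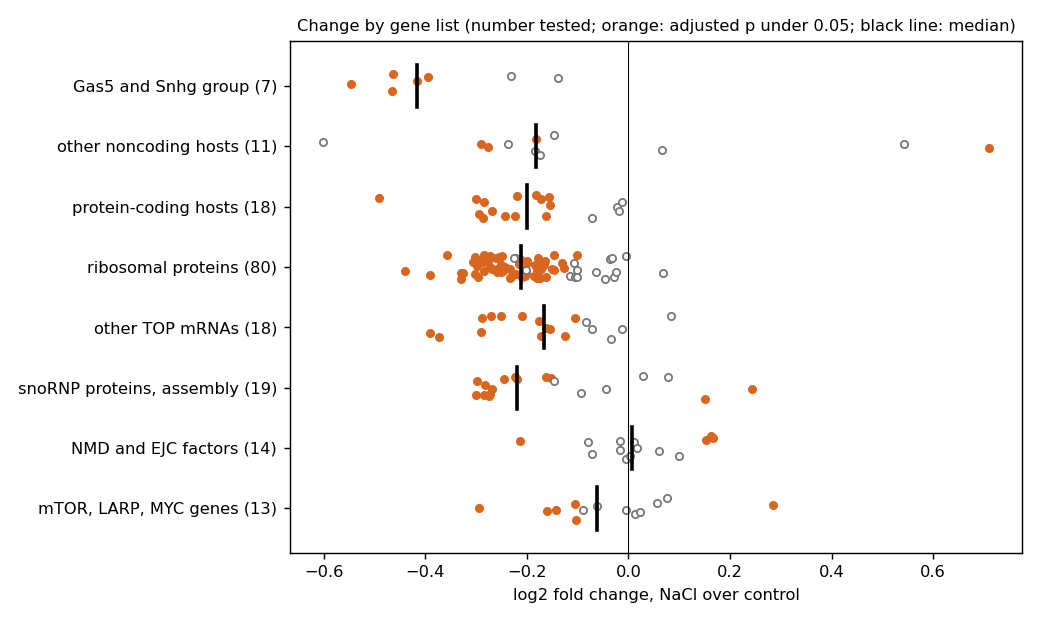
Log2 fold change of NaCl against control on the horizontal axis for each gene of 8 of the lists, 1 row a list, with orange points for adjusted p under 0.05 and a black line for the median. The medians lie at −0.42 for the 7 hosts, −0.21 for ribosomal protein genes and 0.01 for nonsense-mediated decay genes.

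Among the genes beside the hosts some rose and some fell. Zbtb37, whose start lies 427 bases from that of Gas5 on the opposite strand, had 21.6 ± 0.830 CPM in the control and 24.3 ± 0.852 CPM in the NaCl libraries and rose by 0.17 on the log2 scale (edgeR adjusted p = 0.0317). Slc3a2, the heavy chain of several amino acid carriers, starts 106 bases from Snhg1 on the opposite strand and was at −0.10 (edgeR adjusted p = 0.0276), beside −0.47 for Snhg1. The call of Zbtb37 was lost without control 1 or 3 or NaCl 5, 6 or 7 (adjusted p up to 0.0953), and that of Slc3a2 without control 1 or 2 or NaCl 5 or 8 (up to 0.069).

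Rcc1, the exchange factor for Ran, starts 81 bases from Snhg3 on the same strand and had 42.5 ± 3.05 CPM in the control and 36.9 ± 1.58 CPM in the NaCl libraries and fell by 0.21 on the log2 scale (edgeR adjusted p = 0.0096). Phactr4, on the same strand with its start 68803 bases from that of Snhg3, rose by 0.26 (edgeR adjusted p = 0.00785). Trnau1ap, beside Snhg12, was at −0.22 (edgeR adjusted p = 0.00948), beside −0.23 for Snhg12. Prss12, beside Snhg8, was at −1.13 (edgeR adjusted p = 0.0245) on levels of at most 1.51 CPM, a call lost without control 2, control 4, NaCl 7 or NaCl 8 (adjusted p up to 0.126).

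The genes whose level followed a host most closely were sought over the 8 libraries by Pearson's r of log2 CPM, as a description, since the libraries share 1 group difference. They were Ddit3, Rabggtb and Oas1g for Gas5 (r = 0.981, 0.978 and 0.974), Pnpla7 and Zfp275 for Snhg1 (0.972 and 0.971) and Mmd, Ankrd24 and Zdhhc2 for Snhg3 (0.975, 0.975 and 0.974). For Snhg5 they were Trap1, Coq5 and Utp11 (r = 0.989, 0.988 and 0.988), and for Snhg6 Ywhaz, Tnfrsf12a and Angptl2 (0.987, 0.983 and 0.982). Cox8a, Gk and Orc5 followed Snhg8 (r = 0.953, 0.942 and 0.926), and Mrpl33, Cltb and Tm4sf1 followed Snhg12 (0.990, 0.988 and 0.983). None of the 80 listed cytosolic ribosomal protein genes was among these genes, and no gene was named for more than 1 host.

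Total counts were between 35.29 and 47.57 M per library, with control 1 the deepest and NaCl 5 the shallowest. Of 14 collecting duct markers, 13 were in the table, and their summed level was 606 to 739 CPM in the control and 800.3 to 874 CPM in the NaCl libraries, carried by Pax2, Pax8, Krt8 and Krt18. Of the 11 tested, 5 rose, among them Pax2 by 1.23 and Pax8 by 0.54 on the log2 scale. Gata3 and Hoxb7 fell, at −0.44 and −0.25, and 4 did not pass, beside 16.9% of all genes called higher and 17.2% lower. Several defining markers were near 0, with Cdh1 at most 0.709 CPM, Avpr2 at most 1.16 CPM, and the water channel genes Aqp2 and Aqp3 too low to test. The fibroblast list, 4 of 5 genes in the table, summed to 2716 to 3142 CPM in the control and 2342 to 2764 CPM in the NaCl libraries, most of it Col1a1. Leukocyte genes, 3 of 5 in the table, summed to 13.0 to 17.9 CPM and 21.3 to 26.1 CPM. Ptprc rose by 1.73 on the log2 scale (edgeR adjusted p = 5.91e-10), while Csf1r was at −0.05 and Cd68 at −0.51 and neither passed. The 1 endothelial gene of 4 in the table had at most 0.797 CPM in any library. Of 4 proximal tubule genes, 3 were in the table, summing to 162 to 205 CPM and 155 to 177 CPM, and both thick limb genes were present, at 1.66 to 2.82 CPM and 2.45 to 3.43 CPM. The part of these differences in the host gene values was not tested.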

How the data were processed

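Per the submitters' processing notes, Trim Galore 0.6.7, STAR, DESeq2 1.34.0 and the mm10 build were used, with no order or role given. The counter, its strand setting and the annotation are not given in the sources used here. The deposited table holds raw counts per gene for 8 libraries of 35.29 to 47.57 M counts, and the authors' second table holds normalized values (a signal in count-like units). The 7 hosts and the comparison lists were chosen with earlier results of these data known. Genes passing filterByExpr (minimum count 10, 14024 of 15288) were fitted with edgeR 4.0.16 in R 4.3.3 (TMM scaling, robust quasi-likelihood F test, NaCl against control, 4 libraries each), with Benjamini-Hochberg adjustment over all genes and a threshold of 0.05. CPM values are TMM-scaled. The standard error is the log2 fold change divided by the square root of F. A second fit took its scaling from the median of ratios over 80 ribosomal protein genes. Genes other than the hosts were named by rule: the further noncoding hosts, the 2 highest and 2 lowest called genes and the most abundant gene of each list, neighbours of the hosts, and the 3 genes most alike to each host by Pearson's r (mean log2 CPM 3 or more). Some genes that this rule names are not reported here. Gene maps and overlaps came from GENCODE M21 and start sequences from RefSeq on GRCm38.p6. Shared sequence was found with blastn 2.17.0 (matches of at least 75 bases and 98% identity). The alternatives used limma 3.58.1, DESeq2 1.42.0, other scalings and filters, covariates on library number and each library left out. The fitting code was tested on simulated data.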

Additional observations from a re-analysis of the deposited data

Results flagged for a closer look

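Of 40 groups of 4 libraries checked for 1 value far from the other 3, 5 were picked out, where chance gives about 2. Gas5 in NaCl 7 was 44.2 CPM, against 39.9 to 40.6 CPM in the other NaCl libraries, and it still lay below every control library. Snhg8 in control 2 was 16.4 CPM, against 13.9 to 14.1 CPM in the other control libraries. Dancr in control 2 was 3.18 CPM, against 1.55 to 1.66 CPM. The total count of control 1 was 47.57 M, against 41.77 to 42.73 M, and that of NaCl 5 was 35.29 M, against 41.37 to 42.39 M. With these last 2 libraries left out together, an alternative chosen after the data were seen, the same 5 of 7 hosts were called lower.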

How the results depend on the processing

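The count of 5 hosts called lower was 5 or 6 under every alternative but one, and 5 without each replicate in turn. With library number as a linear drift from 1 to 8, a term that by construction follows the groups, 1 host (Snhg5) was called, and Gas5 had an adjusted p of 0.0537. The count of ribosomal protein genes called lower stayed between 59 and 70. The 4 hosts called lower relative to the ribosomal protein genes depended more on the settings: 0 with the drift term, 0 at an adjusted p under 0.01, and between 0 and 4 without each replicate in turn. Under the drift term the sign turned for Snhg4 (0.18), Snhg10 (−0.12), Snhg15 (0.22), Nop58 (0.027), Eef1a1 (−0.065) and Fkbp5 (0.14), and relative to ribosomal protein genes for Snhg1 (0.051), Snhg6 (0.032) and Snhg12 (0.057). Without each replicate in turn, Snhg10 ran from −0.24 (NaCl replicate 6) to 0.24, with −0.12 without control replicate 3, Nr3c1 from −0.026 to 0.00446 (control replicate 4), and Snhg12 relative to ribosomal protein genes from −0.051 to 0.00582 (NaCl replicate 8). The last was 0.019 without both libraries of outlying depth. The cause of these turns was not tested. Over 55 results and 1078 refits, 949 kept direction and side of the threshold, 104 lost the call, 11 gained it and 14 turned. No paired analysis was possible because the control libraries are numbered 1 to 4 and the NaCl libraries 5 to 8, with no number shared. Of the 7 hosts, Snhg3 had the fewest reads, 125 to 249 per library.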
